A study of Rattus norvegicus with 10 samples.

Results

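The genes described here are those of the replicative DNA helicase (Mcm2, Mcm3, Mcm4, Mcm5, Mcm6 and Mcm7), the sliding clamp of the replication fork (Pcna), and enzymes that make DNA precursors (Rrm1, Rrm2 and Tyms). They were taken as every probe set annotated to 1 of these 10 genes on an Affymetrix rat expression array, which gave 11 of the 31042 non-control probe sets of the table. The table holds 14217 gene symbols on probe sets with 1 symbol. Of the 11, 9 carry 1 gene symbol each, and 2 are annotated to both Rrm2 and a second locus, Rrm2l1, which these probe sets cannot tell apart. Those 2, 1389408_at and 1393848_at, are called the Rrm2/Rrm2l1 probe sets. The others are 1374036_at for Mcm2, 1372406_at for Mcm3, 1373557_at for Mcm4, 1376055_at for Mcm5, 1371074_a_at for Mcm6, 1388744_at for Mcm7, 1367671_at for Pcna, 1371862_at for Rrm1 and 1369499_at for Tyms.

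The RNA came from cardiomyocytes of the ventricles of Lewis rats aged 0 to 3 days, grown as primary cultures. Over 3 days the cultures had electric pulses and blebbistatin (n = 3 arrays), pulses alone (n = 4) or neither (nonpulsed, n = 3). The pulses had a rate of 1 Hz and a field of 2 V/cm. Blebbistatin, which inhibits myosin II and so stops contraction, was used at 10 µmol/L. RNA of duplicate experiments was pooled for every array. The sample titles put the arrays under 4 dates, and arrays of the same date are called a culture series. The design text gives 3 arrays and 3 rounds of isolating and culturing cells per treatment, while the labels give 4 pulsed arrays, and no label ties a date to a round. An array with blebbistatin is present in series 2, 3 and 4, a pulsed array in series 1 to 4 and a nonpulsed array in series 1, 2 and 3. Blebbistatin was never given without pulses, so its effect without pacing was not measured. No other inhibitor of contraction was used, so blocked contraction and other effects of the drug cannot be told apart.

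The MCM proteins form a ring that is loaded onto replication origins before S phase and unwinds DNA ahead of the polymerases. Pcna is the ring that holds the polymerases on DNA, ribonucleotide reductase (subunits Rrm1 and Rrm2) makes deoxyribonucleotides, and Tyms, thymidylate synthase, makes the thymidine precursor. Transcription of such genes climbs around the G1/S transition under E2F factors, and rat heart muscle cells leave the cell cycle soon after birth, whereas fibroblasts and other cells of such cultures can go on dividing.

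Because E2F factors act on genes of this kind in general, the promoters were searched for E2F-type letters. RefSeq start sites in assembly GRCr8 gave a window of 300 bases, from 250 before to 50 after the start, for 8 of the 10 genes. Mcm4 and Rrm2 had no entry. The letters TTGGCGC or TTCCCGC or TTGGCGG or TTCCCGG, on both strands, were in the windows of 7 of these 8 genes (all but Pcna) and in 12.6% of the 33469 windows of the RefSeq table. The letters TTGGCGC alone were in 4 of the 8 windows and in 2.26% of all windows, and the 4 genes that hold them are shown. The CCAAT box (CCAAT) was in 6 of the 8 windows, against 37.5% of all, and the GC box (GGGCGG) in 6 of the 8, against 33.1% of all. A match describes the letters and is not evidence of binding, and its part in the differences between arrays was not tested. The 220 bases before the start are shown 5′ to 3′, with E2F-type letters in capitals. They lie at chr19:13488593-13488812 (plus strand) for Mcm5, chr13:42404353-42404572 (minus strand) for Mcm6, chr12:22163179-22163398 (minus strand) for Mcm7 and chr9:120776084-120776303 (minus strand) for Tyms.
Mcm5: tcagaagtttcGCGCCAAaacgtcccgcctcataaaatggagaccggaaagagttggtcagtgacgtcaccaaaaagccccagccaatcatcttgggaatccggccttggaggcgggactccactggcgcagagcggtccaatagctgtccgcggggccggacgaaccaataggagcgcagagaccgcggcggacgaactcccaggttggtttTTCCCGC
Mcm6: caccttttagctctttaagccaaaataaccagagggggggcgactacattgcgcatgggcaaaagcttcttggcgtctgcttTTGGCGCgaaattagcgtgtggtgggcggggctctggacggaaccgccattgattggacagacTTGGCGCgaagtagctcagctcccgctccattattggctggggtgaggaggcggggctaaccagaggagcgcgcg
Mcm7: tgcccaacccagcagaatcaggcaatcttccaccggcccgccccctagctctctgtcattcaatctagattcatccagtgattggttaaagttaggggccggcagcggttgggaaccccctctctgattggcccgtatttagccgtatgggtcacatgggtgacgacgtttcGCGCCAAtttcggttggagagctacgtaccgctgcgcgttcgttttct
Tyms: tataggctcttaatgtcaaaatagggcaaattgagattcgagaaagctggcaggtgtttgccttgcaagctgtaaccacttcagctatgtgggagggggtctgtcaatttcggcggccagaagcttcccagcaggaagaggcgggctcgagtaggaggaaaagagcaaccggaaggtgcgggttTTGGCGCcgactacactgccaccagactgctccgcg

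In Mcm6 the E2F-type letters occurred at 2 places, beginning 138 and 75 bases before the start. Those of Mcm5 began 209 and 7 bases before it, those of Tyms 36 bases before it, and those of Mcm7 within the stretch shown 48 bases before it, where they overlapped a CCAAT box. Mcm2, Mcm3 and Rrm1 held only the letters TTCCCGG or TTCCCGC.

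All values below are deposited log2 values, in which a difference of 1 is a doubling of the signal. Array medians lay between 6.57 and 6.78. The 11 probe sets lay on average between the 59.3rd and the 96.7th percentile of their arrays, and all 11 passed the filter on low values. Levels of different probe sets cannot be compared with each other. Of 9 heart muscle markers measured, among them Tnnt2 and Myh6, the median log2 value was 13.0 to 13.19 with blebbistatin, 12.98 to 13.32 in pulsed and 12.57 to 13.18 in nonpulsed arrays. Fibroblast markers were measured too, with medians of 9.54 to 11.9 with blebbistatin, 9.97 to 12.48 in pulsed and 10.14 to 12.28 in nonpulsed arrays. Fewer dividing cells and less of these RNAs in each cell cannot be told apart in such bulk samples.

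**Figure D1:**
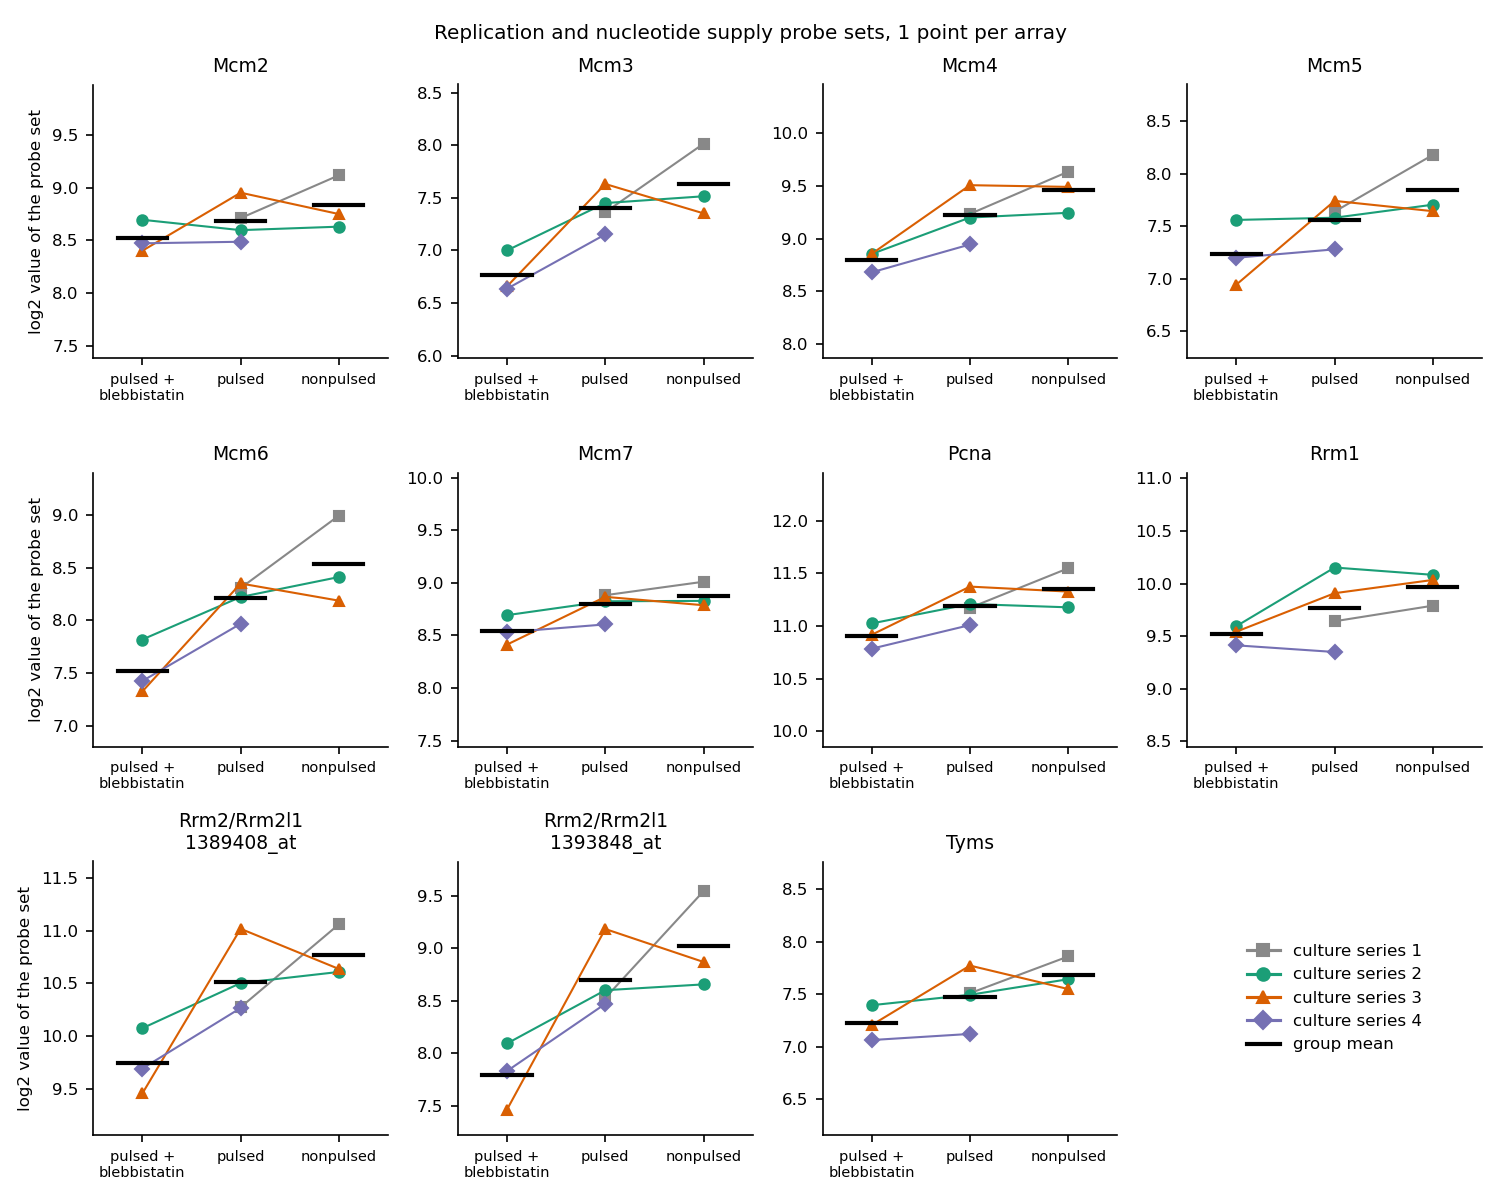
Deposited log2 values (vertical axis, with the same span in each panel) of the 11 probe sets by group, 1 point per array, with lines joining arrays of the same culture series and black bars at the group means. The group mean was lowest with blebbistatin for all 11 probe sets, and the nonpulsed array of series 1 was the highest of the 10 arrays for 10 of them.

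The helicase genes were measured by 1 probe set each. Mcm6, a helicase subunit, had log2 values of 7.82, 7.32 and 7.42 with blebbistatin (series 2, 3 and 4), 8.31, 8.22, 8.35 and 7.97 in pulsed (series 1 to 4) and 9.0, 8.41 and 8.19 in nonpulsed cultures (series 1, 2 and 3). Every array with blebbistatin was below every other array, while pulsed and nonpulsed arrays overlapped. Mcm3, also a helicase subunit, had 7.0, 6.66 and 6.64 with blebbistatin, 7.36, 7.45, 7.63 and 7.15 in pulsed and 8.01, 7.51 and 7.35 in nonpulsed cultures, in the same series order. Mcm4, whose product is part of the catalytic core of the helicase, had 8.85, 8.86 and 8.68 with blebbistatin, 9.23, 9.20, 9.51 and 8.94 in pulsed and 9.64, 9.25 and 9.49 in nonpulsed cultures. For Mcm3 and Mcm4 too, the arrays with blebbistatin lay below all others.

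The other helicase subunits showed smaller gaps. Mcm5 had 7.56, 6.94 and 7.20 with blebbistatin, 7.64, 7.58, 7.74 and 7.28 in pulsed and 8.18, 7.70 and 7.64 in nonpulsed cultures. Mcm7 had 8.69, 8.41 and 8.53 with blebbistatin, 8.88, 8.82, 8.87 and 8.60 in pulsed and 9.01, 8.83 and 8.79 in nonpulsed cultures. For both genes the array with blebbistatin of series 2 was above the pulsed array of series 4, and no array with blebbistatin reached a nonpulsed one. Mcm2 had 8.70, 8.40 and 8.47 with blebbistatin, 8.71, 8.60, 8.95 and 8.49 in pulsed and 9.12, 8.63 and 8.75 in nonpulsed cultures, and its 3 groups overlapped.

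Pcna, the clamp, had log2 values of 11.02, 10.92 and 10.78 with blebbistatin, 11.17, 11.21, 11.37 and 11.01 in pulsed and 11.55, 11.18 and 11.33 in nonpulsed cultures. Its arrays with blebbistatin reached the lowest pulsed array, that of series 4, but no nonpulsed array.

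Among the precursor enzymes, the Rrm2/Rrm2l1 probe sets spanned the widest range. Probe set 1389408_at had 10.07, 9.45 and 9.69 with blebbistatin, 10.27, 10.50, 11.02 and 10.27 in pulsed and 11.06, 10.61 and 10.64 in nonpulsed cultures. Probe set 1393848_at had 8.09, 7.47 and 7.83 with blebbistatin, 8.53, 8.60, 9.18 and 8.47 in pulsed and 9.54, 8.66 and 8.87 in nonpulsed cultures. Both placed all arrays with blebbistatin below all others, and both had their highest pulsed value in series 3. They share their target, so they are not independent of each other.

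Rrm1, the large subunit of the reductase, had 9.59, 9.54 and 9.41 with blebbistatin, 9.64, 10.15, 9.91 and 9.35 in pulsed and 9.79, 10.08 and 10.03 in nonpulsed cultures. It was the 1 gene whose lowest nonpulsed array was that of series 1, and its lowest value of all was in a pulsed array. Tyms had 7.40, 7.21 and 7.06 with blebbistatin, 7.51, 7.49, 7.77 and 7.12 in pulsed and 7.86, 7.64 and 7.55 in nonpulsed cultures. Its arrays with blebbistatin overlapped the pulsed array of series 4 and stayed below the nonpulsed arrays.

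The arrays kept a similar order from gene to gene. Among pulsed arrays that of series 4 was the lowest for all 11 probe sets, and that of series 3 the highest for 9 of them. Among arrays with blebbistatin that of series 2 was the highest for 10. With 1 probe set per gene, Pearson's r over the 10 arrays ranged over the 45 pairs of genes between 0.41 (Rrm1 with Mcm2) and 0.99 (Mcm6 with Mcm3), with a median of 0.90. After the group means were taken out the median was 0.80, with a range of 0.05 to 0.97. The array order and these correlations are a description, since the genes share their arrays and culture series. Neither was counted over all probe sets, so whether they are particular to these genes was not tested.

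The comparison of cultures with blebbistatin and pulses against pulses alone addressed what differed when blebbistatin was added under pacing. Every gene had a lower fitted value with blebbistatin, and the Rrm2/Rrm2l1 probe sets, Mcm6, Mcm3 and Mcm4 had the widest differences, but 0 of the 11 probe sets passed the test. Over the 10 genes the median log2 change was -0.26, against 0.02 over all 23281 probe sets tested. Negative changes were found for 11 of 11 probe sets, against 44.5% of all. The estimates come from limma with culture series as a block. The Benjamini-Hochberg adjustment covered every probe set tested, and at a threshold of 0.05 it left 0.0129% of them in either direction and 0.00859% lower. The smallest adjusted p of the 11 was 0.316 and the largest 0.831 (limma).

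Mcm6 averaged 7.52 ± 0.26 with blebbistatin (SD, n = 3) and 8.21 ± 0.17 in pulsed cultures (SD, n = 4), and Mcm3 6.76 ± 0.20 with blebbistatin and 7.40 ± 0.20 in pulsed cultures. Pcna averaged 10.91 ± 0.12 with blebbistatin and 11.19 ± 0.15 in pulsed cultures. By probe set, the log2 change was -0.76 (SE 0.25) and -0.83 (SE 0.28) for Rrm2/Rrm2l1, or 1.69-fold and 1.78-fold lower. Mcm6 was 1.5-fold lower (-0.58, SE 0.17, with a 95% interval of -0.97 to -0.19), Mcm3 1.48-fold (-0.56, SE 0.17) and Mcm4 1.3-fold (-0.38, SE 0.12). These 5 probe sets were the ones with an unadjusted p under 0.05, a share to be read beside the 5.51% of all probe sets that were lower at that level. They were also the 5 whose arrays with blebbistatin all lay below the pulsed arrays, which held for 3.67% of all probe sets.

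The remaining genes had smaller estimates, with 95% intervals that included 0. Rrm1 had a change of -0.28 (SE 0.12), Mcm5 of -0.24 (SE 0.17), Pcna of -0.24 (SE 0.12), Mcm7 of -0.21 (SE 0.10), Tyms of -0.20 (SE 0.13) and Mcm2 of -0.10 (SE 0.15). The interval of Mcm2 ran from -0.46 to 0.25 and that of Tyms from -0.51 to 0.11. Within the helicase, whose subunits act in 1 ring, the estimates spread between -0.58 and -0.10, and that spread between subunits was not tested.

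Taken by culture series, the differences were widest in series 3. Series 2 had a median of -0.27 over the 10 genes, series 3 of -0.61 and series 4 of -0.15, against 0.03, 0.02 and 0.05 over all probe sets tested. In series 3 all 11 probe sets were lower with blebbistatin, and in series 2 and 4 it was 10 of 11. The exceptions were Mcm2 in series 2 (0.10) and Rrm1 in series 4 (0.06). Of all probe sets tested, 45.5%, 47.2% and 42.5% were lower in series 2, 3 and 4. Lower in all 3 series were 9 of the 11 probe sets, against 15.2% of all probe sets.

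For single genes, Rrm2/Rrm2l1 (1389408_at) differed by -0.43 in series 2, -1.57 in series 3 and -0.58 in series 4. Mcm6 differed by -0.40, -1.03 and -0.54 and Mcm3 by -0.45, -0.97 and -0.52 in the same series. These genes were lower in each series, and lowest against the pulsed array in series 3. Mcm5 had -0.02, -0.80 and -0.08, and Tyms -0.10, -0.57 and -0.06, so their estimates rested mostly on series 3. Without series 3 the median over the 10 genes was -0.19, and the fitted changes of Mcm5 and Mcm2 were 0.0071 and 0.095.

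**Figure D2:**
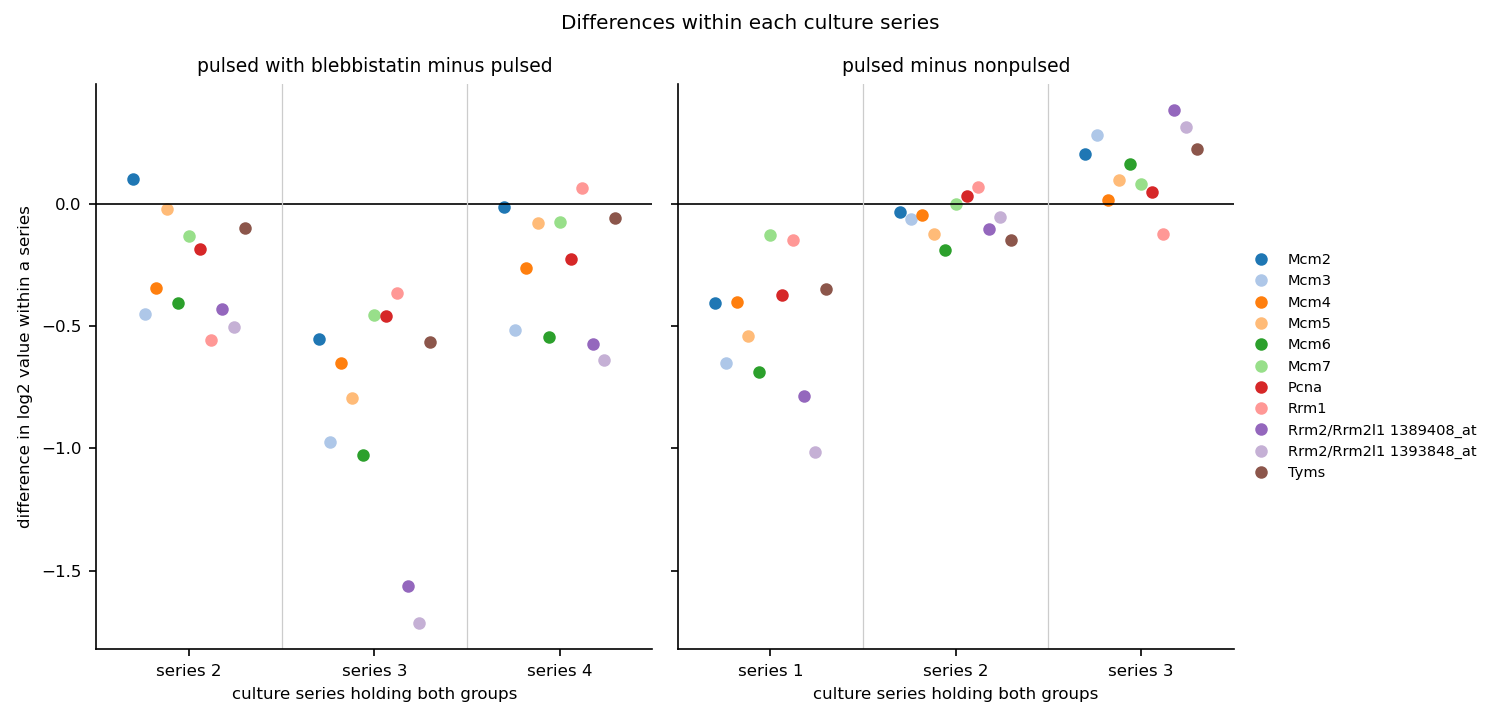
Difference in log2 value (vertical axis) between arrays of 1 culture series, 1 point per probe set, for blebbistatin with pulses minus pulses (left, series 2, 3 and 4) and pulsed minus nonpulsed (right, series 1, 2 and 3). With blebbistatin the points of series 3 all lie below 0, down to -1.72, while pulsed minus nonpulsed is below 0 for all 11 probe sets in series 1 and for 1 in series 3.

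Markers of other cell types also had lower values with blebbistatin. The 8 smooth muscle and pericyte markers measured were all lower (median log2 change -0.70), as were 9 of 10 fibroblast markers (-0.28), 10 of 10 macrophage and leukocyte markers (-0.27) and 6 of 7 endothelial markers (-0.30). Heart muscle markers had a median of 0.00, with 4 of 9 lower. Over all probe sets tested, 44.5% had a negative change. Of these lists 0 markers passed the adjusted test in either direction. At an unadjusted p under 0.05 (limma), 4 of 8 smooth muscle and pericyte and 4 of 10 fibroblast markers were lower. So were 3 of 8 macrophage and leukocyte, 2 of 5 endothelial and 1 of 9 heart muscle markers tested, against 5.51% of all probe sets. In each list 0 were higher at that level, beside 1418 of all probe sets. In series 2, 3 and 4 the median difference was -0.51, -0.85 and -1.0 for smooth muscle and pericyte markers and -0.40, -0.29 and -0.18 for fibroblast markers. In the same series it was -0.15, -0.33 and -0.32 for endothelial markers, -0.18, -0.05 and -0.72 for macrophage and leukocyte markers, and -0.12, 0.10 and 0.22 for heart muscle markers. The median log2 value of the smooth muscle and pericyte markers lay between 7.65 and 9.08 with blebbistatin, 8.76 and 9.24 in pulsed and 9.13 and 9.97 in nonpulsed arrays. The endothelial markers Vwf and Emcn and the macrophage markers Cd163 and Adgre1 were too dim to be tested. The difference between 3′ and 5′ probe sets of GAPDH, a control for RNA quality, was 0.20 ± 0.02 on the log2 scale with blebbistatin, 0.11 ± 0.04 in pulsed and 0.13 ± 0.06 in nonpulsed arrays (SD, n = 3, 4 and 3). In the same group order it was 0.72 ± 0.04, 0.67 ± 0.05 and 0.59 ± 0.12 for beta-actin. For hexokinase it was 0.92 ± 0.11, 0.95 ± 0.11 and 0.89 ± 0.03, so the 3 controls did not order the groups alike. The part of these markers and of RNA quality in the differences was not tested.

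Pacing itself was addressed by setting pulsed against nonpulsed cultures. All 11 probe sets had slightly lower fitted values in pulsed cultures, with a median log2 change of -0.14 over the 10 genes against 0.04 over all probe sets, and 0 of 11 passed (limma, smallest adjusted p = 0.680). The share of all probe sets that passed was 0% (limma, with 317 lower and 1796 higher at an unadjusted p under 0.05), and 38.9% had a negative change. An unadjusted p under 0.05 was found for 0 of 11, against 1.36% of all probe sets that were lower at that level, and 0 of 11 were lower without overlap of the arrays, against 1.16% of all.

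The series disagreed in direction. In series 1 all 11 probe sets were lower in the pulsed array, with a median over the genes of -0.40. In series 2 the median was -0.05, with 9 of 11 lower, and in series 3 it was 0.13, with 1 of 11 lower (Rrm1). Over all probe sets tested the medians were 0.10, 0.04 and 0.02, and 37.2%, 42.5% and 44.9% were lower in series 1, 2 and 3.

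Rrm2/Rrm2l1 (1389408_at) differed by -0.79 in series 1, -0.11 in series 2 and 0.38 in series 3, Mcm6 by -0.69, -0.19 and 0.16, and Mcm3 by -0.65, -0.06 and 0.28. The number of probe sets lower in all 3 series was 0 of 11, against 10% of all. The widest difference of each of the 11 probe sets was in series 1, whose nonpulsed array was the highest of all for every gene but Rrm1. Without series 1 the median was -0.00 and the fitted changes of Mcm3, Rrm2/Rrm2l1 (both probe sets), Mcm2, Pcna and Mcm7 were positive, between 0.0015 and 0.075.

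Markers moved with this comparison too. All 9 heart muscle markers were higher in pulsed cultures, with a median change of 0.28, 3 of them at an unadjusted p under 0.05. Over all 23281 probe sets tested, 38.9% had a negative change and 1796 were higher at that level. The median differences of the heart muscle markers were 0.80, 0.21 and 0.02 in series 1, 2 and 3. Endothelial markers had a median of 0.30 with 3 of 7 lower, and differences of 0.55, -0.07 and 0.37. Of 5 endothelial markers tested, 3 were higher and 0 lower at an unadjusted p under 0.05. The other medians were -0.17 for smooth muscle and pericyte markers (7 of 8 lower) and -0.02 for fibroblast markers (5 of 10 lower). Macrophage and leukocyte markers had 0.16 (4 of 10 lower). At that level 1 of 8 macrophage and leukocyte markers tested was lower and 0 higher, beside 1.36% of all probe sets lower. Smooth muscle and pericyte markers and fibroblast markers had 0 in either direction. In series 1 the median log2 value of the heart muscle markers was 13.32 in the pulsed and 12.57 in the nonpulsed array, and that of the smooth muscle and pericyte markers 8.76 in the pulsed and 9.97 in the nonpulsed array. The part of these markers in the differences was not tested.

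Cultures with blebbistatin and pulses were also set against nonpulsed cultures, which differ in both pacing and drug. The estimates were the widest of the 3 comparisons, with a median log2 change of -0.43 over the 10 genes against 0.07 over all probe sets. All 11 changes were negative, against 39% of all. Again 0 of 11 probe sets passed (limma, smallest adjusted p = 0.0856, for Mcm6), beside 0.472% of all probe sets in either direction and 0.172% lower. The changes were -0.96 (SE 0.28) and -1.12 (SE 0.32) for Rrm2/Rrm2l1, -0.83 (SE 0.19) for Mcm6, -0.72 (SE 0.19) for Mcm3 and -0.54 (SE 0.13) for Mcm4. Mcm5, Rrm1, Pcna, Tyms, Mcm7 and Mcm2 had changes of -0.46, -0.41, -0.35, -0.32, -0.24 and -0.20.

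For 10 of the 11 probe sets (all but Mcm2) every array with blebbistatin lay below every nonpulsed array, which held for 6.9% of all probe sets. An unadjusted p under 0.05 was found for 8 of 11, against 6.89% of all that were lower at that level. In series 2 the median was -0.32 and in series 3 it was -0.56, and 10 of 11 probe sets were lower in both, against 25.3% of all. The median change of smooth muscle and pericyte markers was -0.85, with 7 of 8 lower, and that of heart muscle markers 0.28, with 1 of 9 lower. Fibroblast markers had -0.28, with 9 of 10 lower and 6 of them at an unadjusted p under 0.05. Macrophage and leukocyte markers had -0.29 (8 of 10 lower) and endothelial markers -0.04 (4 of 7 lower). At an unadjusted p under 0.05, 5 of 8 smooth muscle and pericyte and 3 of 8 tested macrophage and leukocyte markers were also lower. Of 5 tested endothelial markers 1 was lower and 1 higher, and 2 of 9 heart muscle markers were higher and 0 lower. Over all probe sets tested, 39% had a negative change, while 6.89% were lower and 3608 higher at that level. The part of these markers in the differences was not tested. The 3 comparisons share arrays, so their likeness adds no support. With culture series as a random block, 5 of the 11 passed (Mcm6, Mcm3, Mcm4 and both Rrm2/Rrm2l1 probe sets, adjusted p between 0.0297 and 0.0393), in a fit in which 1212 of all probe sets passed in place of 110.

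**Figure D3:**
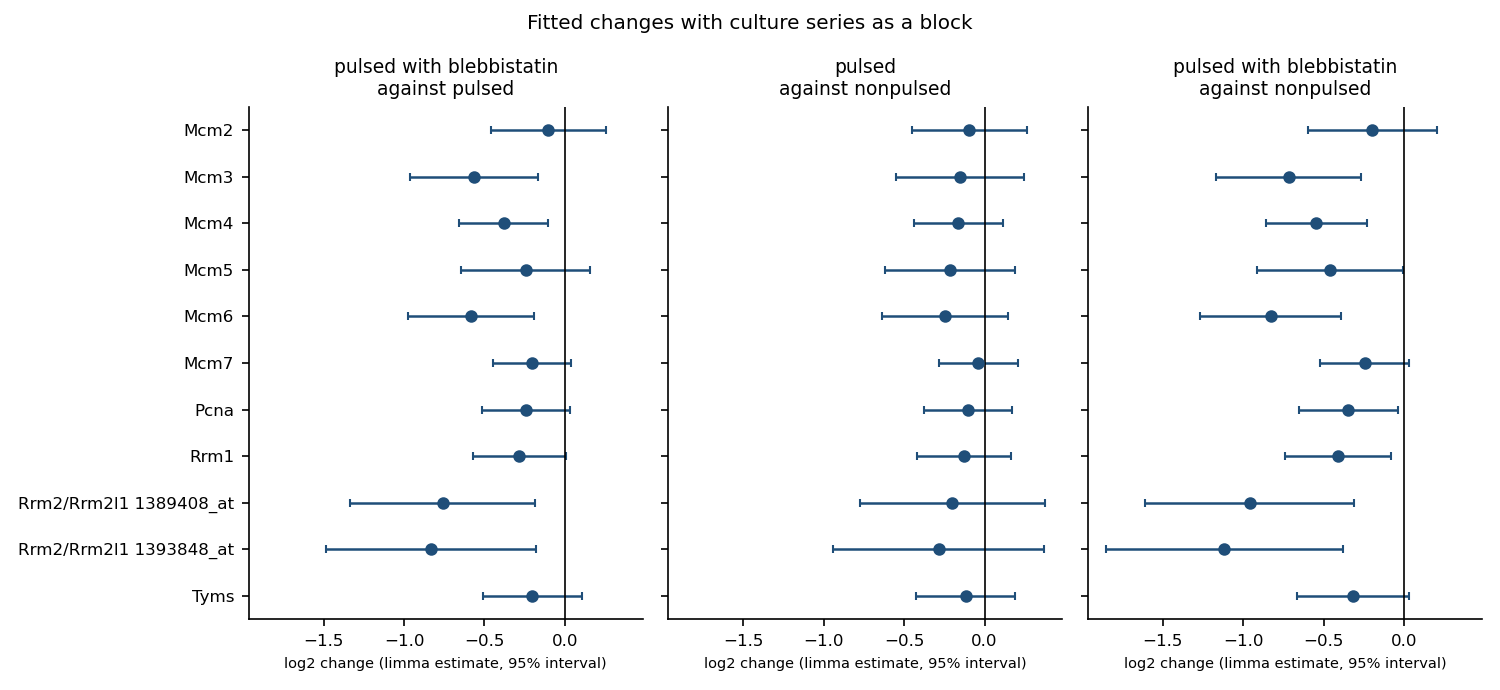
Log2 change (horizontal axis, limma estimate) of each probe set with its 95% interval in the 3 comparisons, from a fit with culture series as a block. All points lie below 0, and the intervals exclude 0 for 5 probe sets against pulsed, for none in pulsed against nonpulsed, and for 8 in blebbistatin with pulses against nonpulsed.

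The wider replication machinery was described with 7 lists of 113 genes, of which 100 were measured and 97 tested. Of these, 0 passed in any comparison (limma). The smallest adjusted p (limma) was 0.101 for blebbistatin with pulses against nonpulsed and 0.538 for pulsed against nonpulsed. It was 0.257 for blebbistatin with pulses against pulses. In that comparison 70 of the 100 had a negative change, with a median of -0.13, against 44.5% of all 23281 probe sets tested. At an unadjusted p under 0.05, 20 of the 97 tested were lower and 2 higher. Over all probe sets 5.51% were lower and 1418 higher at that level. The share of 44.5% also stands beside the counts of lower genes with blebbistatin in each list below. The lists differed in how far they went with the 10 genes, and those differences between lists were not tested.

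Genes of origin licensing and firing had a median log2 change of -0.08 with blebbistatin, with 8 of 13 lower. The widest differences were those of Gins1, a subunit of the GINS complex that joins the helicase (-0.53, SE 0.17), and Gmnn, geminin, which blocks relicensing (-0.31, SE 0.16). Orc3 and Orc5, subunits of the origin recognition complex, had 0.13 (SE 0.10) and 0.11 (SE 0.09). Polymerase and primase genes had a median of -0.06, with 7 of 11 lower, and Pole2 and Pola1, of polymerase epsilon and alpha, had -0.56 (SE 0.23) and -0.42 (SE 0.16). Pole4 and Pold3, other polymerase subunits, had 0.15 (SE 0.09) and 0.08 (SE 0.12).

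Genes of clamp loading, single strand binding and the lagging strand had a median of -0.09, with 11 of 13 lower but none beyond -0.20, the estimates of Rfc5, a clamp loader subunit, and Rnaseh2c, a subunit of ribonuclease H2. Rfc1 and Rnaseh2a, of the same complexes, were at 0.08 each. Fork stability and chromatin assembly genes had a median of -0.25, with 7 of 9 lower. In that list Asf1b, a histone chaperone, had -0.43 (SE 0.23) and Clspn, the checkpoint adaptor claspin, -0.39 (SE 0.17), while Tipin and Nasp were at 0.04 each. Clspn only just passed the filter on low values, with a mean log2 value of 5.098 over all arrays against a limit of 5.093. Its mean was 4.67 with blebbistatin, below that limit, 5.10 in pulsed and 5.52 in nonpulsed cultures.

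Other nucleotide supply genes split by gene, with a median of 0.10 and 6 of 16 lower. Tk1, the thymidine kinase of dividing cells, had -0.53 (SE 0.19) and Dctd, which makes the substrate of Tyms, -0.45 (SE 0.14). By contrast Tk2, the mitochondrial thymidine kinase, had 0.25 (SE 0.12) and Shmt1, a folate enzyme, 0.33 (SE 0.13). Dctd and Tk1 were lower with blebbistatin in series 2, 3 and 4, by 0.31, 0.91 and 0.22 for Dctd and by 0.43, 1.0 and 0.45 for Tk1 on the log2 scale.

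Among G1/S control genes the median was -0.16, with 18 of 24 lower. E2f7, an E2F repressor, had -0.98 (SE 0.23, and -0.70, -1.55 and -0.98 in series 2, 3 and 4), Ccna2, cyclin A2, -0.82 (SE 0.27), and E2f1, an E2F activator, -0.39 (SE 0.22). The cyclin D2 gene Ccnd2 had 0.37 (SE 0.11), Cdc25a, a phosphatase that activates cyclin-dependent kinases, 0.22 (SE 0.10), and Cdkn1a, the inhibitor p21, 0.00 (SE 0.11). E2f7 passed the filter on low values with a mean log2 value of 5.42 over all arrays, against a limit of 5.09. Its mean was 4.73 with blebbistatin, below that limit, 5.72 in pulsed and 5.71 in nonpulsed cultures, so its change involves dim values. Mitosis genes had a median of -0.57, with 13 of 14 lower, and medians of -0.21, -1.3 and -0.38 in series 2, 3 and 4. They included Prc1 (-0.80, SE 0.25), Cdk1 (-0.74, SE 0.28), the proliferation marker Mki67 (-0.74, SE 0.25) and Top2a, a topoisomerase (-0.62, SE 0.19). Cdc20 was at 0.03 (SE 0.13) in the probe set with the highest mean of its 5, and the others are not shown.

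In pulsed against nonpulsed cultures the same 100 genes had a median of -0.05, with 65 lower and 0 passing (limma). Of them 1 was lower and 0 higher at an unadjusted p under 0.05. Over all 23281 probe sets tested, 38.9% had a negative change, and 1.36% were lower and 1796 higher at that level. With blebbistatin and pulses against nonpulsed the median was -0.17, with 72 lower and 0 passing. Of these genes 29 were lower and 6 higher at an unadjusted p under 0.05. Over all probe sets tested, 39% had a negative change, and 6.89% were lower and 3608 higher at that level.

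**Figure D4:**
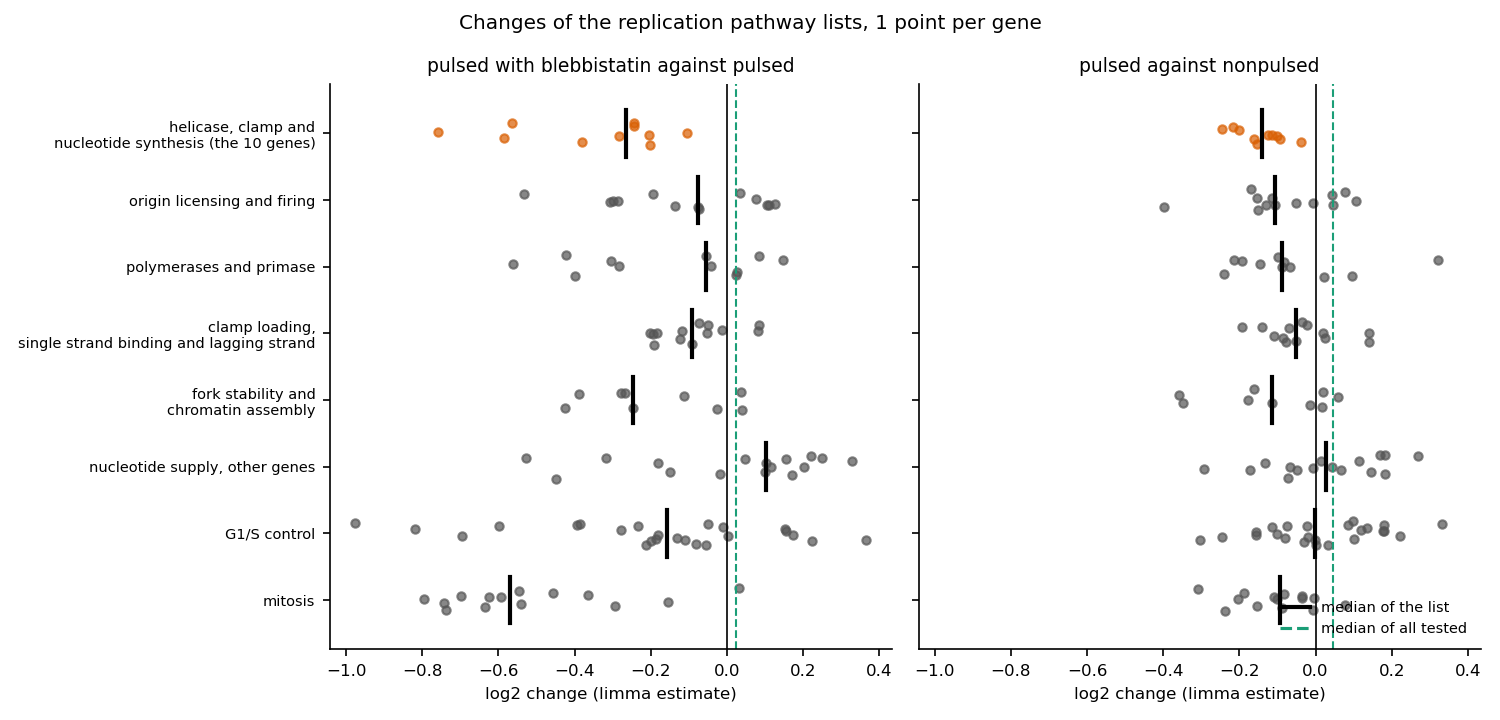
Log2 change (horizontal axis, limma estimate) of each measured gene of the 10 genes and of 7 pathway lists, for blebbistatin with pulses against pulses (left) and pulsed against nonpulsed (right), with black bars at list medians and a dashed line at the median of all probe sets tested. On the left the medians run from -0.57 for mitosis to 0.10 for other nucleotide supply genes, and on the right from -0.14 for the 10 genes to 0.03.

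Likeness to the 10 genes was measured as Pearson's r over the 10 arrays with their mean log2 value, for 11837 other genes with 1 symbol. The 6 most alike were Gins4, a further GINS subunit (r = 0.99), Ccna2 (0.98), Smc2, a condensin subunit (0.98), Gins1 (0.98), Cenpk, a centromere protein (0.98), and C2h4orf46 (0.97). Gins4 had log2 values of 8.33, 8.07 and 8.09 with blebbistatin, 8.57, 8.54, 8.69 and 8.29 in pulsed and 9.0, 8.57 and 8.69 in nonpulsed cultures. As for most of the 10 genes, its highest value was in the nonpulsed array of series 1, and its highest pulsed value in series 3.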

How the data were processed

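RNA was extracted with Trizol and labelled with biotin, per the labels' protocols. Values were deposited by the authors on a log2 scale, with 1 for each array and probe set. Per the submitters' processing notes they used Affymetrix Expression Console 1.1 with PLIER. Base 2 was taken from the values, whose lowest level is 3.32 to 3.46 on each array, and no scaling was added. Precision is limited by how few arrays there are.

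Of 31099 probe sets, 57 controls and those in the lowest 25% of mean log2 value (below 5.09) were left out of the test, which kept 23281. Gene names come from the platform annotation, which gave 20826 probe sets 1 symbol, 436 several and 9780 none. The symbols of the 11 probe sets matched their gene IDs in the RefSeq table of GRCr8. The promoter sequences are RefSeq's. Pathway genes are shown by their probe set with the highest mean.

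The model, run in limma 3.58.1 (R 4.3.3) with eBayes on the 10 arrays, had a term for each group and, since groups differ in the series they hold, a fixed block for culture series, taken from the dates in the sample titles. Tests were two-sided. A fitted change also draws on the third group and can differ from the differences within series. The titles do not say what the date marks. Arrays of the same series and different groups deviated together from their group means (r of 0.35 to 0.63 in 8 pairs). Medians over the 10 genes use 1 probe set per gene.

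The members, lists and tests were chosen with earlier results of these data known. Named pathway genes are the 2 widest differences in each direction per list in blebbistatin with pulses against pulses, plus Ccna2, E2f1, Cdkn1a, Mki67 and Top2a, and the 6 genes most alike over the arrays. The fit was tested on simulated data. Alternatives covered the block, the arrays fitted, scaling, filters, probe set rules, the prior and leaving out each array or series.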

Additional observations from a re-analysis of the deposited data

How the results depend on the processing

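The number of the 11 probe sets that passed stayed 0 in each comparison under the alternatives run, except for 5 in blebbistatin with pulses against nonpulsed with culture series as a random block. The median over the 10 genes was negative under all of them, and moved by less than the SD of the series medians. That yardstick is wide in pulsed against nonpulsed, where the series medians ran from -0.40 to 0.13. There the median was -0.00 without series 1. With no replicate block the medians were -0.30, -0.22 and -0.53, against -0.26, -0.14 and -0.43 with it. Their order is blebbistatin with pulses against pulses, pulsed against nonpulsed, and blebbistatin with pulses against nonpulsed. Leaving out an array or a series gave medians of -0.38 to -0.19, -0.25 to -0.00 and -0.56 to -0.31. With the block, leaving out 1 array of series 1 equals leaving out that series, because the array that remains has no partner. Without the Rrm2/Rrm2l1 probe sets, an alternative chosen after the data were seen, the medians were -0.24, -0.13 and -0.41.

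Of 275 values for single probe sets in each comparison, 271, 257 and 275 were negative. In pulsed against nonpulsed the positive ones came from leaving out series 1 or either of its arrays. Leaving out an array or series gave there -0.24 to 0.050 for Mcm2, -0.33 to 0.075 for Mcm3, -0.11 to 0.0015 for Mcm7, -0.19 to 0.023 for Pcna, and -0.48 to 0.068 (1389408_at) and -0.58 to 0.050 (1393848_at) for Rrm2/Rrm2l1. In blebbistatin with pulses against pulses the positive ones came from leaving out series 3 or an array of it, with -0.23 to 0.095 for Mcm2 and -0.39 to 0.0071 for Mcm5.

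Over all probe sets, the number that passed was 3, 0 and 110. In blebbistatin with pulses against pulses it was 5 with no replicate block, 14 with a random block, 12 with only the groups compared, 48 with only the series holding both groups, 0 with no filter, 6 with the lowest 50% left out and 10 with a trended prior, and 0 to 48 when an array or series was left out. In blebbistatin with pulses against nonpulsed it was 46 with no replicate block, 1212 with a random block, 2 with only the groups compared, 31 with only the series holding both groups, 67 after quantile normalization, 1 with no filter, 70 with the lowest 50% left out, 63 with 1 probe set per gene, 71 with the mean of the probe sets of a gene and 216 with a trended prior, and 0 to 69 when an array or series was left out. Fewer features or arrays entered some of these fits, and the cause of the other changes was not tested. Pulsed against nonpulsed stayed at 0 throughout.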
